A study of Homo sapiens with 10 samples.

Results

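The zinc finger (ZNF) genes of human chromosome 19 were examined for the places where poly(A) reads end in neuroblastoma cells. Members were the protein-coding genes of GENCODE 44 on chromosome 19 whose symbol is ZNF followed by digits, which gave 240 of the 1476 protein-coding genes of that chromosome (16.3%) and of 20033 on chromosomes 1 to 22, X and Y. The data were 1 list of 178837 poly(A) 3′-sequencing peaks, of which 5652 lay on chromosome 19. Poly(A) 3′-sequencing (QuantSeq REV) primes at poly(A) tails, so that reads mark transcript ends and their number does not scale with transcript length. The cells were IMR-32, an established MYCN-amplified neuroblastoma line. They had received pLKO.1 lentiviral short hairpin RNAs and puromycin selection. The hairpins were directed against CDK12 (CDK12 sh22 and CDK12 sh98), against CDK13 (CDK13 sh701 and CDK13 sh704), which are kinases of the RNA polymerase II tail, or against GFP as the control (shGFP), with 2 libraries for each of the 5 constructs. Peaks had been called once on the merged reads of the 10 libraries. The list therefore holds no value for any library, no knockdown could be compared with the control, and every value describes the pool of knockdown and control cells, in which the knockdown libraries are 8 of the 10.

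Most ZNF genes of chromosome 19 encode proteins with an array of C2H2 zinc fingers, in which each finger reads a few bases of DNA, and many carry a KRAB domain at the front that recruits the co-repressor TRIM28 and, through it, histone methylation. The family grew by tandem duplication, which left long runs of neighbouring relatives, and many of its proteins silence transposable elements. Their transcripts typically end in 1 long last exon that holds the finger array and the 3′ untranslated region. Cleavage usually follows a poly(A) signal, AATAAA or ATTAAA in DNA letters, a short way upstream. A stretch of adenines inside a transcript can also be primed by the oligo(dT) used in such libraries, so a peak is a place where reads end and need not be a cleavage site.

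The family structure could be read from the annotated proteins. A KRAB pattern was found in 201 members and not in 39, and the number of C2H2 fingers ran from 1 to 36 with a median of 12. Members were 3.12 to 489 kb long with a median of 25.5 kb, and 228 of them lay in 10 runs of at least 5 members less than 500 kb apart. A peak was assigned to a gene if its summit lay in the gene or up to 600 bases past its 3′ end. It was called terminal when the summit was between 200 bases upstream and 600 bases downstream of the end of any annotated transcript, exonic when it was elsewhere in an exon, and intronic otherwise. The strength of a peak is given as its pileup, the number of extended reads that the caller counted over the summit. It was recovered from what the caller wrote for each peak and need not scale with the number of reads sequenced. The median pileup was 9 over all peaks of the list and 11 over those on chromosome 19.

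The sequences at some strong terminal peaks of members show how a 3′ end with a poly(A) signal looks in this family. The following 30 bases end at the 3′ edge of the peak, on the gene's strand in GRCh38, with the poly(A) signal in capitals. They belong to 5 of the strongest terminal peaks among those that have a signal in these 30 bases and do not overlap a gene of the other strand.
ZNF302, chr19:34686365-34686394 (+): gcatctAATAAAatcattttgtatatcatg
ZNF69, chr19:11914523-11914552 (+): ggctAATAAAtttgtgtaaattgtctaaat
ZNF738, chr19:21379292-21379321 (+): atttgcacATTAAAaaaatgttacctgtcc
ZNF121, chr19:9560317-9560346 (-): aaaattgtAATAAAagaagttacttgggtc
ZNF606, chr19:57977052-57977081 (-): gagaAATAAAgttacctggtttctctgtct

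The signal began 21 to 25 bases upstream of the edge in these 5 windows. The pileups of their peaks were 38 for ZNF302, 36 for ZNF69 and for ZNF738, 34 for ZNF121 and 33 for ZNF606.

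Many intronic peaks had a different look. The following 70 bases cover 50 bases upstream and 20 downstream of the 3′ edge of a strong intronic peak that lies in no other annotated gene, with the first 10 bases past the edge in capitals. It is shown because at least 7 of those 10 bases are A, here called A-rich.
ZNF83, chr19:52644178-52644247 (-): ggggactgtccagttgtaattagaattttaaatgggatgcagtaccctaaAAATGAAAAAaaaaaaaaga

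The pileup of this peak was 26.

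Other intronic peaks had a poly(A) signal and fewer than 7 A downstream, like the terminal ones. The same 70 bases are given for 2 of them, with the signal in capitals.
ZNF682, chr19:20017163-20017232 (-): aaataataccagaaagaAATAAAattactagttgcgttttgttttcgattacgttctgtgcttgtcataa
ZNF83, chr19:52641346-52641415 (-): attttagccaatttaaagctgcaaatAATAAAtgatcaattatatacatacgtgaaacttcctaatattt

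The pileup was 30 at the ZNF682 site and 29 at the ZNF83 site. ZNF83 thus had an A-rich and a signal-bearing site of like height in its introns, with 26 against 29 reads.

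Nearly every ZNF gene had a place where reads ended. Of the 240 members, 231 had at least 1 peak (96.3%, 95% Wilson interval 93.0% to 98.01%) and 213 had a terminal peak (88.8%, 84.1% to 92.2%). Among the 1124 other protein-coding genes of chromosome 19 in the same range of lengths, 840 had at least 1 peak (74.7%, 72.1% to 77.2%). This share is not weighted by length, and these genes are shorter in the median. A terminal peak was found in 716 of the 1124, a background of 63.7% (60.8% to 66.5%). The background for a terminal peak over protein-coding genes of the genome was 68.7% (13761 of 20033). The intervals cover counting error over genes, which are not replicates of a condition. They do not overlap between the members and the other chromosome 19 genes, and no test was made. The higher share of ZNF genes with a terminal peak was seen in each quartile of their length. It was 90.0% against 59.1% of the other genes from 3.12 to 15.8 kb and 88.3% against 64.9% from 15.9 to 25.2 kb. From 25.7 to 36.8 kb it was 90.0% against 71.9%, and from 36.8 to 489 kb it was 86.7% against 69.2%. With each quartile given the same weight, the other genes came to 66.3%. The other genes with zinc finger symbols, such as the ZSCAN genes, and PEG3 had a terminal peak in 22 of 29 cases (75.9%, 57.9% to 87.8%), which overlaps the interval of the members. A ZNF gene overlapped 47 of the 1124 comparison genes, and without these the weighted share was 67.7%.

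The order of the 2 shares with a terminal peak depended on the −log10 q that a peak had to reach. This score is not the pileup, and score and pileup need not rank peaks alike. The strongest terminal peak had 32 reads and a −log10 q of 20.4 in ZNF544, and 27 reads and 34.4 in ZNF536. At a −log10 q of at least 20, 72 of the members (30%) and 33.6% of the other genes, weighted by length quartile, kept a terminal peak, which turns the direction. At a −log10 q of at least 5 the shares were 87.5% and 64.3%. With the transcript that Ensembl names canonical in place of all transcripts, the shares were 76.3% and 61.2%, and without the peaks that lie in another annotated gene they were 57.9% and 43.4%. The median was 6 annotated transcripts and 5 distinct 3′ ends for a member and 7 transcripts and 5.5 ends for another gene. These medians are not matched for gene length, and whether annotation had a part in the shares was not tested.

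The terminal peaks of ZNF genes were of middling height. The strongest terminal peak of a member had a pileup of 5 to 45 reads, with a median of 20 and quartiles of 14 and 25. In the other genes the median was 22, the quartiles were 14 and 31, and the highest was 76. The upper part of the range was thus thinner in the ZNF genes. A strongest terminal peak of at least 20 reads was nevertheless present in 112 of 240 members (46.7%, 40.5% to 53.0%) and in 404 of 1124 other genes (35.9%, 33.2% to 38.8%), since more of the members had one at all. These shares are not weighted by length, and they did not turn in direction as those at a −log10 q of at least 20 did. The summit lay at a median of 44 bases upstream of the nearest annotated end.

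The 10 highest terminal peaks belonged to ZNF382 with 45 reads, ZNF480 and ZNF146 with 43, ZNF808 with 42, ZNF253 with 41, ZNF420 with 40, ZNF302 with 38, and ZNF569, ZNF17 and ZNF433 with 37 each. ZNF146 encodes a short protein of fingers without a KRAB pattern, with 10 fingers in 292 residues, and the other 9 have a KRAB pattern. ZNF808 is known for silencing transposable elements in the developing pancreas. The ZNF382, ZNF302 and ZNF569 peaks lay in no other annotated gene, whereas those of the other 7 also lay in another annotated gene, so that the gene the reads came from cannot be told apart. The summit of the ZNF146 peak lies in an intron of ZNF565, on the other strand, and that of the ZNF808 peak in an intron of ZNF701.

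ZNF genes often had more than 1 terminal peak. At least 2 terminal peaks were found in 124 members (51.7%, 45.4% to 57.9%) and in 30.1% of the other genes. Among genes with any terminal peak these shares were 58.2% (51.5% to 64.6%) and 47.2% (43.6% to 50.9%). Members with 3 or more terminal peaks numbered 61 (25.4%, 20.3% to 31.3%), against 148 of the other genes (13.2%, 11.3% to 15.3%). None of these shares is matched for gene length, and the other genes are shorter in the median. The highest numbers were 7 in ZNF568 and in ZNF331, 6 in ZNF91 and in ZNF28, and 5 in ZNF493, ZNF536, ZNF544 and ZNF875.

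ZNF331, an imprinted gene, shows how such ends are spread. Its 7 terminal peaks had 10, 18, 6 and 6 reads at inner transcript ends and 13, 21 and 20 reads near the end of the gene, so that no single peak stood above the rest. A poly(A) signal was found at 2 of the 7. The peak of 21 reads had none, and 9 of its 10 downstream bases were A. An exonic peak of 17 reads, between the peaks of 21 and 20 reads, had a signal. ZNF568, whose mouse relative represses a placental Igf2 transcript, had 22 and 17 reads at an inner pair of ends near chr19:36952622-36953057 and 12 and 11 reads at its outermost ends. In ZNF382, by contrast, the outermost peak of 45 reads stood far above the inner ones of 15, 13 and 5 reads.

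ZNF91 and ZNF93 are known for repressing SVA and LINE-1 retrotransposons. ZNF91 (90.5 kb) had 6 terminal, 1 exonic and 16 intronic peaks. Its strongest terminal peak, of 24 reads, lay at an inner transcript end at chr19:23357682-23357815, a second of 22 reads lay at chr19:23337785-23337930, and the terminal peak nearest the outer end of the gene had 8 reads. ZNF93 (62.6 kb) had 3 terminal peaks of 15 to 23 reads and 4 intronic peaks of 6 to 16. ZNF274, which recruits the histone methyltransferase SETDB1 to the 3′ ends of zinc finger genes, had 21 reads at its outer end with a poly(A) signal, and 9 and 7 reads at inner ends where all 10 downstream bases were A. ZNF507, a gene expressed in brain, had a terminal peak of 13 reads and an exonic one of 23 reads in its last exon. For ZNF296 no peak was listed.

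The runs of neighbouring genes differed in how many of their members had a terminal peak. In the run from ZNF565 to ZNF573 (chr19:36182276-37817300) it was 24 of 24, in the run from ZNF414 to ZNF846 13 of 13 and in the run from ZNF302 to ZNF792 5 of 5. It was 38 of 39 from ZNF175 to ZNF331, 24 of 25 from ZNF653 to ZNF791, 37 of 41 from ZNF264 to ZNF446, 14 of 16 from ZNF628 to ZNF835, 19 of 23 from ZNF575 to ZNF180 and 4 of 5 from ZNF554 to ZNF77. The run from ZNF101 to ZNF254 (chr19:19668796-24129968, 4.46 Mb) had the lowest share, with 25 of 37 (67.6%, 51.5% to 80.4%), against 188 of 203 (92.6%, 88.2% to 95.5%) for the other members. As the run was picked for its share, this is a description.

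Of the 27 members without a terminal peak, 12 lay in that run, and so did 6 of the 9 members for which no peak of any kind was listed. The latter 6 were ZNF208, ZNF257, ZNF729, ZNF99, ZNF723 and ZNF728, which lie between ZNF100 and ZNF730. Of the other members in that stretch, ZNF676 had 1 intronic peak of 6 reads and ZNF98 had 1 of 24 reads, while ZNF43 had 4 terminal peaks of up to 26 reads and ZNF492 had 1 of 17 reads. The other 3 members without any peak were ZNF556, ZNF296 and ZNF534. A peak list shows what passed the caller's threshold, so a gene without a peak was not detectable at this depth and is not shown to be silent. The 37 members of the run were longer, with a median of 36.7 kb against 22.4 kb. The ones that had a terminal peak had a median of 21 reads, against 20 for the other members, so that their ends were of like height.

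**Figure D1:**
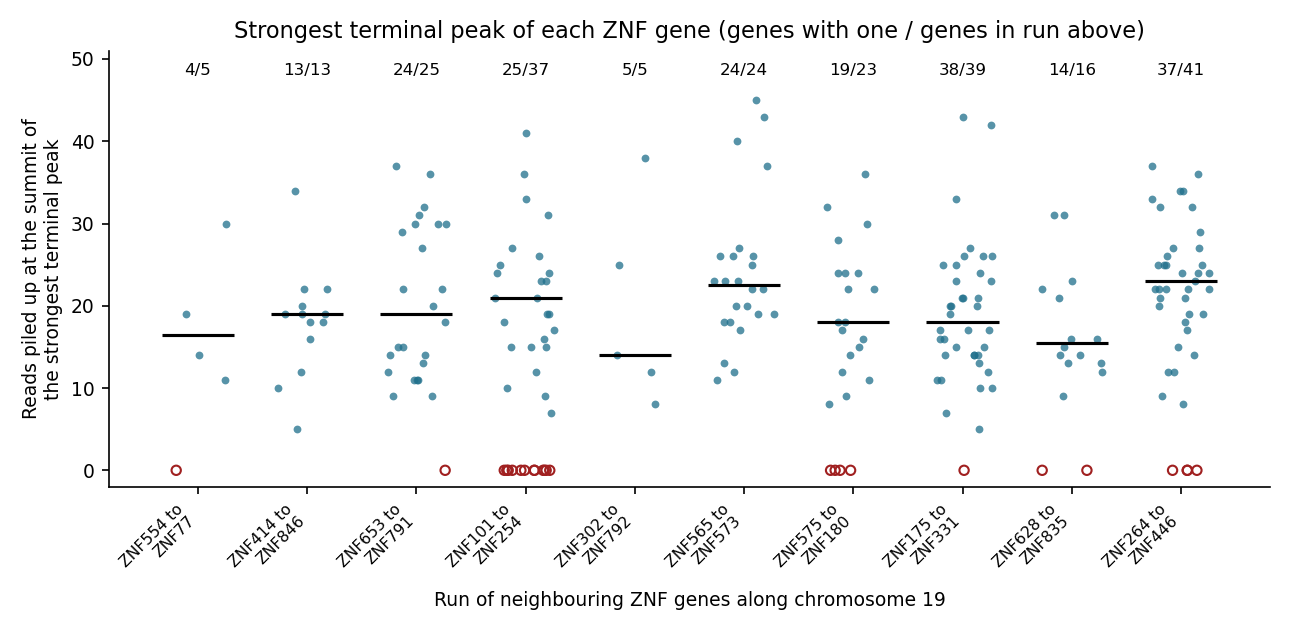
Pileup (reads at the summit) of the strongest terminal peak of each ZNF gene, by run of neighbouring genes in their order on chromosome 19. Points are genes, open circles at 0 are genes with no terminal peak in the list, bars are medians of the genes with one, and the counts above give genes with a terminal peak of genes in the run, lowest in the run from ZNF101 to ZNF254 with 25 of 37.

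Terminal peaks were next counted by the make-up of the protein. Genes with a KRAB pattern had a terminal peak in 177 of 201 cases (88.1%, 82.8% to 91.8%) and those without in 36 of 39 (92.3%, 79.7% to 97.3%), with a median of 20 reads in both. The share was 90.3% with 1 to 9 fingers, 85.2% with 10 to 14 and 92.9% with 15 or more, with overlapping intervals.

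Members are related by duplication, and reads with several genomic positions had been kept in the mapping. The 100 bases that end at the 3′ edge of each peak were therefore compared with the genome, and a peak was marked where another place matched at 98 or more bases. This was so for 10 of 432 terminal peaks (2.31%), 4 of 210 exonic peaks (1.90%) and 43 of 880 intronic peaks (4.89%) of members, against 1.33%, 3.05% and 3.92% in the other genes. The strongest terminal peak was marked in 4 of 213 members, namely ZNF443, ZNF573, ZNF799 and ZNF83, with 11 to 19 reads. Their height is uncertain for that reason.

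Peaks within ZNF genes were mostly intronic. Over the 1522 pairs of a member and a peak in it, which were 1439 distinct peaks, 432 were terminal (28.4%), 210 exonic (13.8%) and 880 intronic (57.8%). In the other genes the shares of 4034 pairs were 31.6%, 8.95% and 59.4%. Another annotated gene also held the summit in 39.4% of the members' pairs and in 38.4% of the other genes' pairs. An intronic peak was present in 199 of 240 members (82.9%, 77.6% to 87.2%), above the background of 51.6% (48.7% to 54.5%) of the other genes, which are shorter in the median (15.7 kb). By quartile of length the share was 61.7%, 85%, 90% and 95% in the members and 29.6%, 62.3%, 74.1% and 83.7% in the other genes, which came to 62.4% with the quartiles weighted alike. The members had 1.15 intronic peaks per 10 kb of gene, and the other genes had 0.850 when weighted by the members' length in each quartile. By quartile of length the density was 0.936, 0.967, 1.26 and 1.19 in the members and 0.484, 0.778, 0.793 and 0.955 in the other genes. Among the genes with a terminal peak the densities were 1.23 and 0.986. Whether having a terminal peak had a part in the difference was not tested. At a −log10 q of at least 20, 28 intronic peaks of members were left and the densities, 0.0366 and 0.0440, turned in direction. Without the peaks that lie in another annotated gene they were 0.674 and 0.520.

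The place of the intronic peaks along the genes was counted as well. In the canonical transcript, 251 of 564 (44.5%, 40.5% to 48.6%) lay in the first intron, which made up 39.4% of the intron length when weighted by the peaks. In the other genes it was 32.1% against 31.0% of the length. Within 2 kb of the gene start lay 11.8% (9.85% to 14.1%) of the members' intronic peaks and 6.17% (5.28% to 7.21%) of those of the other genes. These 2 shares are not matched for gene length, so a difference in length cannot be told apart from one in position.

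The genes with the most peaks were long. ZNF536, a brain-expressed repressor without a KRAB pattern and at 489 kb the longest member, had 64, of which 57 were intronic with 4 to 22 reads and a median of 8. Of the 55 of these that had a single strand, 40 were A-rich. Its 5 terminal peaks reached 27 reads, at an inner end. ZNF254 followed with 27 peaks, and ZNF91 and ZNF83 had 23 each and ZNF44 18. In ZNF254, 13 of 23 intronic peaks had a poly(A) signal and 10 were A-rich. Another annotated gene also held 13 of these 23 peaks, the strongest among them.

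Density picked out other genes. ZNF497 (8.49 kb) had 4 intronic peaks of 13 to 27 reads, all in a non-coding gene as well, and a terminal peak of 21. ZNF69 (26.5 kb) had 10 intronic peaks of 10 to 17 reads beside a terminal one of 36, and none lay in another gene. ZNF611 (32.3 kb) had 9 intronic peaks of 7 to 14 reads, of which 7 were A-rich, and its 4 terminal peaks of 8 to 15 were of like height, with 3 of them A-rich and none with a signal. The 6 intronic peaks of ZNF177 also lay in the readthrough gene ZNF559-ZNF177. The 3 of ZNF878, which had no terminal peak, also lay in 2 unnamed protein-coding genes, of which 1 is on the other strand.

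In 45 of the 183 members with both kinds (24.6%, 18.9% to 31.3%), the strongest intronic peak exceeded the strongest terminal one. In the other genes this was so for 80 of 468 (17.1%, 13.95% to 20.8%), an interval that overlaps that of the members. In 28 of the 45 (62.2%) it lay in another annotated gene, against 364 of the 880 intronic peaks of members (41.4%). In 9 of the 45 (20%) it lay at a transcript end of another protein-coding gene, against 34 of the 880 (3.86%). The largest ratios were found in ZNF135 with 47 reads in an intron against 9, ZNF577 with 22 against 5, ZNF565 with 43 against 11, ZNF235 with 24 against 8 and ZNF155 with 25 against 9. The peak in ZNF135 was the strongest intronic peak of any member and lay at an end of ZSCAN18, a neighbour on the other strand. That in ZNF565 is the terminal peak of ZNF146 named above, and that in ZNF235 lay at an end of ZNF227. The peak in ZNF577 was in ZNF649 and its antisense gene. The peak in ZNF155 (chr19:43981428-43981610) lay in no other annotated gene, and its 25 reads were about 2.78 times those at the terminal peak. The 2 terminal peaks of ZNF155 also lay in ZNF230-DT, on the other strand, so the gene those reads came from cannot be told apart. Among members without a terminal peak, the intronic peak of 40 reads in ZNF582 also lay in the non-coding gene ZNF542P on the other strand, and that of 38 reads in ZNF547 lay at an end of TRAPPC2B.

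**Figure D2:**
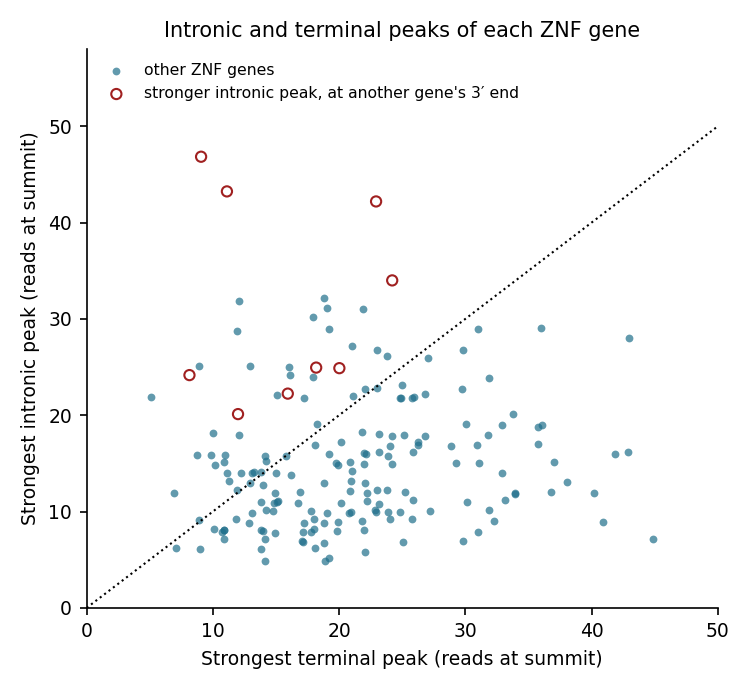
Pileup (reads at the summit) of the strongest intronic peak against that of the strongest terminal peak for the 183 ZNF genes with both, with a small random shift so that points do not cover each other. The dotted line marks equal height, 45 genes lie above it, and the open circles mark the 9 of these whose intronic peak lies at a transcript end of another protein-coding gene.

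The base composition at the 3′ edge set the classes apart. The comparison used the peaks that overlapped no gene of the other strand, since the list gives no strand and each peak took that of its gene. A poly(A) signal, read as AATAAA or ATTAAA within 50 bases upstream on the gene's strand, stood at 192 of 340 terminal peaks of members (56.5%, 51.2% to 61.6%), 72 of 165 exonic ones (43.6%) and 163 of 686 intronic ones (23.8%). The shares in the other genes were 52.2%, 23.8% and 17.8%. With any of 12 known signal hexamers the share of the members' terminal peaks was 72.9%, against 67.2% in the other genes. AATAAA was found at 43.5% and ATTAAA at 16.2% of the members' terminal peaks, and the third most common of the 12 was TATAAA at 7.35%. Signals began most often 26 bases upstream of the edge, and 53.8 per 100 terminal peaks began 15 to 35 bases upstream.

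The 10 bases downstream were A-rich at 71 of 340 terminal peaks (20.9%, 16.9% to 25.5%) and at 403 of 686 intronic peaks (58.7%). These shares hold for the 3′ edge, since counted from the summit 2.92% of the intronic peaks were A-rich and 12.4% of the terminal peaks had a signal. Beyond the other edge, on the opposite strand, the same was true of 6.12% of the intronic peaks, so that the adenines stood on the gene's own side. In the other genes 63.0% of intronic peaks were A-rich. Intronic peaks of members with a signal and fewer than 7 A numbered 115 (16.8%), against 12.7% in the other genes, and had a median of 11 reads where the A-rich ones had 9. The terminal peaks of members with a signal and fewer than 7 A had a median of 15.5 reads and the A-rich ones 14. Whether priming at genomic adenines had a part in the intronic peaks was not tested. With the peaks that were A-rich on their gene's strand removed, 87.5% of the members and 65.0% of the other genes still had a terminal peak, and the intronic density was 0.548 per 10 kb in members and 0.363 in the other genes. This step also took in the peaks that overlapped a gene of the other strand. Their own strand is not known, so A-rich peaks among them may have been kept.

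Exonic peaks of ZNF genes lay chiefly in the last exon. Of the 210, 134 (63.8%) were in the last exon past the coding sequence, with a median of 17 reads, and 56 of the 104 of these with a single strand (53.8%) had a poly(A) signal. In the other genes 141 of 361 exonic peaks (39.1%) were there, and 45 of 112 had a signal (40.2%). Such sites lie away from the annotated transcript ends, by the terminal window set here. A further 24 peaks of members (11.4%) lay in coding sequence, with a median of 9 reads, against 66 of 361 (18.3%) in the other genes. Whether these peaks of members lay in the finger array was not examined. Of the 20 in members with a single strand, 2 had a signal and 10 (50%) were A-rich, and in the other genes 15.5% were A-rich.

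The genes of the proteins through which KRAB zinc finger proteins act had terminal peaks as well. Each of 13 co-repressor genes (TRIM28, SETDB1, ATF7IP, CBX1, CBX3, CBX5, CHD3, HDAC1, HDAC2, DNMT1, TASOR, MPHOSPH8 and PPHLN1) had a terminal peak, against the 68.7% of protein-coding genes. Their strongest terminal peaks had 26 to 72 reads with a median of 41, so that the lowest, PPHLN1, stood above the median of the ZNF genes. The median of the other chromosome 19 genes was 22. No such median was taken over the genome, so whether these heights are unusual for protein-coding genes was not tested. TRIM28, the scaffold that binds the KRAB domain, had 58 and SETDB1, which writes the histone mark, had 64. The labelled cell type was checked on markers. Neuroblastoma and adrenergic neuron genes had a terminal peak in 12 of 12 cases, with 16 to 114 reads. Those of fibroblasts had one in 3 of 5, those of immune cells in 1 of 4, those of epithelium in 1 of 4 and those of endothelium in 1 of 3, none above 14 reads.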

How the data were processed

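Poly(A) 3′-seq was measured in 10 libraries of IMR-32 cells. According to the study's methods and the submitters' processing notes, the authors trimmed the reads, mapped them to GRCh38 with STAR 2.5.1b, keeping reads with several positions, downsampled the libraries, which came from 2 batches, to the smallest, merged them, and called peaks once with MACS2 2.1.1. The paper also describes a later removal of peaks that had no poly(A) signal motif but a genomic stretch of adenines downstream. Whether the list used here precedes that step could not be told. What the authors deposited per peak is a fold (the summit's pileup over local background, a ratio), the −log10 of its p-value, and the −log10 of its q-value, which served here as a score for filtering. The list has no strand and no depth per library, so batches, groups and replicates could not be compared, and precision is given as 95% Wilson intervals, which cover counting error only. The list holds no reads, so duplicate reads could not be examined here. The peak-calling settings stated in the paper name no choice on duplicates, so whether the pileups count them could not be told.

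The summit pileup was computed as the whole number that returns both the deposited fold and −log10 p (largest difference 0.000168, where the next whole number differed by a median of 0.0780). Genes came from GENCODE 44, whose coordinates and those of the FASTA are GRCh38, as are the peaks. ZNF genes and other chromosome 19 genes were compared in the 4 quartiles of ZNF gene length, after leaving out 3 readthrough genes. A C2H2 finger and at least 2 of 3 KRAB sequence patterns were searched in the translated canonical transcript. Some sequences are not reported here. Copies were searched with BLAST 2.17.0. Genes were named by rank of terminal pileup (10), number of peaks (5), intronic density (5), ratio of intronic to terminal pileup (5), length without any peak (3) and number of terminal peaks (5), or from a list of genes with known roles. Other genes were named after their values were seen: those in the shown sequences, the members without a terminal peak, the copies, members tied in a rank or lying beside them, and those bounding the runs. Members and lists were chosen with earlier results of these data known. The steps were tested on simulated peaks, with Python 3.11.15, pandas 2.3.3, pysam 0.24.0 and samtools 1.23.1.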

Additional observations from a re-analysis of the deposited data

How the results depend on the processing

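A −log10 q of at least 20 lowered the share of ZNF genes with a terminal peak to 30% and that of the other genes to 33.6%, the intronic density to 0.0366 and 0.0440 per 10 kb, and the A-rich share of intronic peaks to 42.9% (21 peaks), and raised the signal share of terminal peaks to 72.6%. A terminal window of 100 bases either side gave 83.8% and 61.5%. The canonical transcript gave 76.3% and 61.2%, with 54.3% of intronic peaks A-rich and 69.8% of terminal peaks with a signal. Without peaks in another gene the shares were 57.9% and 43.4% and the densities 0.674 and 0.520. Read from the summit in place of the 3′ edge, 2.92% of intronic peaks were A-rich and 12.4% of terminal peaks had a signal. The 12 hexamers gave 72.9%. In settings chosen after seeing the data, peaks with fewer than 7 A downstream gave densities of 0.548 and 0.363, and leaving out the members from ZNF101 to ZNF254 gave 92.6%. The median terminal pileup ran from 19 to 28.5. Merging near peaks, a −log10 q of at least 5, the other choices of comparison genes (1 of them, without overlaps, also added later) and a window of 100 bases upstream for the signal moved the values by less than their interval or 1.5 times.

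No paired analysis was possible because reads of the 10 libraries had been merged before peak calling. Leaving out single replicates was likewise not possible. A gene absent from the list cannot be told from one below the caller's threshold.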
